A study of Mus musculus with 14 samples.

Results

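The difference between ovaries of mice given dextran sulfate sodium (DSS) and control ovaries was read here as a single quantity per gene, the part that is common to both sampling times of the study. All 14 of the 14 libraries entered it, 8 from DSS and 6 from control mice. For each gene, log2(FPKM + 1) was modelled with a treatment term and an additive day term, so that the treatment term averages the DSS difference over day 7 and day 89. FPKM counts the fragments of a gene per kilobase of its length and corrects them for library depth. The reading then asked which differences pointed the same way at each day, since each day has its own control libraries and no library is shared between the day 7 and day 89 contrasts.

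The animals were female wild-type mice of the inbred strain C57BL/6J, and the labels give no age. The 4 groups were control day 7 (n = 3, replicates 10, 51 and 53), DSS day 7 (n = 4, replicates 75, 80, 81 and 82), control day 89 (n = 3, replicates R123, R124 and R126) and DSS day 89 (n = 4, replicates R29, R38, R78 and R89). Values per library are given below in that order. The series text places the first time at the close of the DSS model and the second after a long rest, and the dose and route of DSS are not stated in the sources used here. The labels do not tie each library to its own animal. The p-values therefore gauge variation from library to library, part of which may be technical.

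DSS is a sulfated polysaccharide that injures the lining of the colon and is a common way of producing colitis in mice. The ovary holds oocytes inside follicles, steroid-producing granulosa, theca and luteal cells, a dense and continually remodelled vasculature, and resident macrophages that clear regressing follicles and corpora lutea. Ovulation itself is an inflammation-like event, in which proteases, prostaglandins and vasoactive peptides open the follicle wall.

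Of the 16 retina markers listed because the extraction protocol in the labels mentions retinas, only Rom1 was high enough to be tested, whereas all 16 granulosa and 30 of 31 oocyte markers were. The RNA pattern is thus that of ovary. Recovered depth ran from 15.26 to 18.51 in units of 1000000 reads. In 3 libraries, called mitochondria-rich below, transcripts of the mitochondrial genome made up a large part of the reads (9.96% and 12.2% in control replicates 10 and 53, 14.2% in DSS replicate 75), against 0.479% to 4.04% in the other 11. Control replicates 51 and R124 stood apart in another way, with the lowest level in their groups of the zona pellucida gene Zp3, at 24.8 and 9.55 FPKM. For many of the treatment terms and list medians that leaving out control replicates 51 and R124 together moved, the value without them is also given.

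No gene passed the threshold of the treatment term. Of 18006 genes tested, 0% had an adjusted p under 0.05 (limma, Benjamini-Hochberg), and the smallest adjusted p was 0.254. At an unadjusted p under 0.05, 2060 genes (11.4%) were counted, of which 1100 stood higher (6.11%) and 960 lower (5.33%) in DSS. These counts leaned on control replicate 51, without which they were 689 and 545, and on control replicate R124, without which they were 770 and 596. Without both of these controls the counts were 459 and 373. The genes described below are therefore those with the smallest p, none of which passed the adjusted threshold, and their values are given as measurements.

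The differences of both days were only loosely alike across genes. The sign was the same at both days for 9621 genes (53.4%), 4969 of them higher in DSS (27.6%) and 4652 lower (25.8%). Across the 18006 genes, which are not independent replicates, Pearson's r between the day 7 and day 89 differences was 0.14 and Spearman's rho was 0.12. At day 7, 2889 genes (16%) had an unadjusted p under 0.05, and at day 89 there were 824 (4.58%). Of the 2889, 58.4% kept their sign at day 89, 115 reached an unadjusted p under 0.05 there in the same direction (74 higher, 41 lower), and 48 did so in the opposite direction. All 4 DSS libraries lay above all 3 controls at each of both days for 46 genes (0.255%), and below them for 40 genes (0.222%). In 56 further genes the groups were also fully separated at each day, but in opposite directions.

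**Figure D1:**
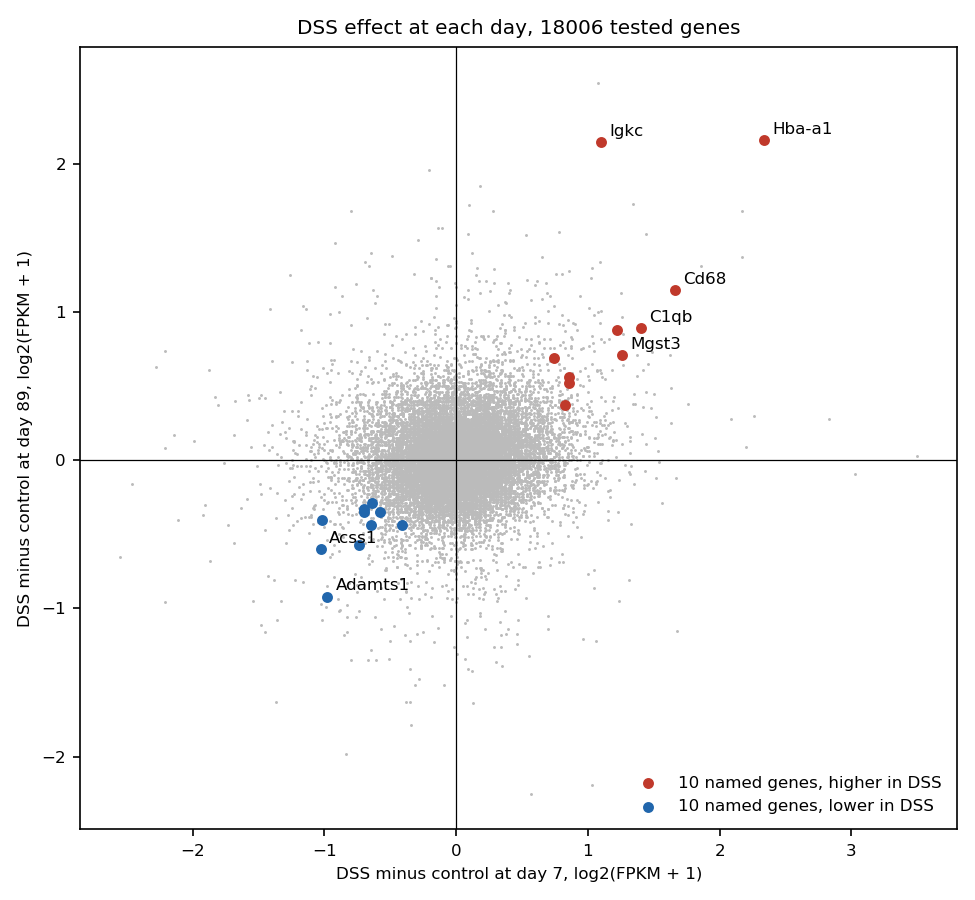
Each point is 1 of 18006 tested genes, with the DSS minus control difference at day 7 on the horizontal axis and at day 89 on the vertical axis, both in log2(FPKM + 1). The 10 named genes that stood higher are red (upper right) and the 10 that stood lower are blue (lower left). They were chosen by the smallest p and not by size, so other genes lie further out than some of them. The cloud is wider along the day 7 axis and only weakly tilted (Pearson's r 0.14).

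Igkc, which encodes the constant region of kappa light chains of antibodies and is a product of B and plasma cells, had the smallest p of the treatment term. It lies on GRCm38 at chr6:70726435-70726966. Igkc stood at 5.38, 3.15 and 6.61 FPKM in day 7 controls and at 9.91, 17.1, 11 and 9.48 in day 7 DSS ovaries. At day 89 it was 2.26, 5.09 and 4.02 in controls and 18, 35.0, 18.4 and 12.3 in DSS. Every DSS library exceeded every control of its day, and the lowest DSS value overall was above the highest control value overall. The treatment term was 1.62 log2 units (SE 0.26, limma adjusted p = 0.254), with 1.10 at day 7 and 2.15 at day 89. The difference between these day effects was 1.05 (SE 0.46, adjusted p = 0.574).

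The other B and plasma cell genes mostly pointed the same way. Of 22 listed, Igkc included, 15 were tested, 14 stood higher at both days (93.3%, against 27.6% of all genes) and none stood lower at both. Ighd and Iglc1, counted among the 14, reached 0.5 FPKM only in DSS libraries, with controls at most at 0.427 and 0.403. Cd79a, Ighg3 and Iglc2, also among the 14, reached 0.5 FPKM in fewer controls than the 3 libraries that the filter asks for. All of these genes were thus tested only because of the DSS groups, and the share is a description. The list median of the treatment term was 0.36, against 0.00 over all genes, with 0.32 at day 7 and 0.46 at day 89. It was 0.94 with a pseudocount of 0.1 and 1.19 with the voom fit on recovered reads. Derl3, an endoplasmic reticulum protein of secretory cells, differed by 1.06 (SE 0.41), and by 0.40 without control replicates 51 and R124. Control replicate 51, at 4.48 FPKM, was far below control replicate 10 at 34.4. Ighm, the mu heavy chain, differed by 0.12 at day 7 and 1.40 at day 89, where DSS replicate R29 reached 28.7 FPKM and the highest control 3.74. Ighg2b, a heavy chain of class-switched antibody, differed by 0.73 (SE 0.29) and stood at 6.35 FPKM in R29, with the other DSS libraries of that day at 0.480 to 1.37. The summed level of the list was 19.3 to 56.8 FPKM in day 7 controls and 60.5 to 94.3 in DSS, and 18.5 to 30.3 and 53.6 to 91.4 at day 89. Igkc and Derl3 make up much of that sum. Without them it was 11.7 to 17.2 FPKM in day 7 controls and 15 to 29.1 in DSS, which overlap, and 7.99 to 9.91 and 18.4 to 56.6 at day 89, which do not. The defining B cell gene Ms4a1 reached at most 0.384 FPKM in any library and was not tested. In bulk tissue, more cells of a type and more RNA per cell cannot be told apart.

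Macrophage genes formed the next group. Cd68, a lysosomal glycoprotein of macrophages that lies on GRCm38 at chr11:69664213-69666153, stood at 10, 2.19 and 6.28 FPKM in day 7 controls and at 15.2, 22.7, 18.4 and 20.4 in DSS. At day 89 the gene was 35.6, 14.7 and 16.4 in controls and 56.0, 76.0, 33.0 and 34.1 in DSS. The groups were separate at day 7, and at day 89 control replicate R123 lay above DSS replicates R78 and R89. The treatment term of Cd68 was 1.40 (SE 0.28, limma adjusted p = 0.254). It was 1.04 without control replicates 51 and R124, the lowest controls of their days. Fcgr3, an activating receptor for the Fc part of antibody, differed by 0.93 (SE 0.23; 0.60 without control replicates 51 and R124), and Fcgr1, the high-affinity receptor, by 0.64 (SE 0.18). Csf1r, the receptor for the growth factor that sustains macrophages, differed by 0.41 (SE 0.13), with the same 0.41 at each day. Of the 20 macrophage genes, all tested, 14 stood higher at both days (70%) and none lower, with a median of 0.35 (0.47 at day 7 and 0.29 at day 89). The summed level was 219 to 276 FPKM in day 7 controls and 354 to 452 in DSS. At day 89 the groups overlapped, at 338 to 655 and 513 to 960.

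The 3 chains of C1q, which binds antibody complexes and opens the classical complement pathway and is made in tissues largely by macrophages, stood higher in DSS too. C1qc and C1qb lie next to each other on chromosome 4, C1qb at chr4:136880129-136886187 on GRCm38. C1qb stood at 48.5, 24.7 and 41.5 FPKM in day 7 controls and 129, 82.2, 95.7 and 93.9 in DSS. The day 89 values were 86.4, 72.0 and 47.8 in controls and 204, 176, 84.6 and 78.2 in DSS. As with Cd68, DSS replicates R29 and R38 were high at day 89 while R78 and R89 lay within the control range. The treatment term was 1.14 for C1qb (SE 0.25), 1.05 for C1qc (SE 0.22, both adjusted p = 0.261) and 0.69 for C1qa (SE 0.21). Among other complement genes, C3ar1, the receptor for the C3a fragment, differed by 0.54 (SE 0.15). Serping1, the inhibitor of the C1 complex, differed by 0.46 (SE 0.15; 0.26 without control replicates 51 and R124), and C4b, the C4 component, by 1.41 at day 7 and 0.18 at day 89. Of 16 tested complement genes, 10 stood higher at both days (62.5%) and none lower, with a median of 0.38, which was 0.24 without control replicates 51 and R124. Among controls the list member Cfd reached 0.5 FPKM only in replicate R124 (0.857), so it was tested only because of the DSS groups.

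Genes of antigen presentation by MHC class II, which display peptides to helper T cells, were in the same direction at both days in 8 of 9 tested (88.9%). Their median was 0.40, with 0.30 at day 7 and 0.32 at day 89, and 0.23 without the 3 mitochondria-rich libraries. H2-Aa, the alpha chain of the surface complex, stood at 17.1, 27.6 and 29.1 FPKM in day 7 controls and at 38.6, 46.7, 43.5 and 33.1 in DSS. At day 89 H2-Aa was 28.3, 42.2 and 23.5 in controls and 40.0, 51, 29.6 and 35.5 in DSS, so the groups were separate at day 7 and overlapped at day 89. Its treatment term was 0.52 (SE 0.17). H2-Oa, a chain of the complex that restrains peptide loading in B cells, differed by 0.51 (SE 0.14), and the loading factors H2-DMb1 and H2-DMa by 0.43 (SE 0.16) and 0.40 (SE 0.16). Among controls H2-Oa reached 0.5 FPKM only in replicate R123 (0.544). It was thus tested only because of the DSS groups, and the share is a description.

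Among cytokines and chemokines, 12 of 18 tested genes stood higher at both days (66.7%) and none lower, with a median of 0.43. The list median was 0.36 at day 7 and 0.22 at day 89, and members were larger at one day or the other. Ccl8, a chemokine that draws monocytes, differed by 2.83 at day 7 and 0.28 at day 89, and Ccl9 by 1.2 and 0.19. Cxcl1, a neutrophil attractant, differed by 1.11 and 0.17. Ccl6 differed by 1.37 and 0.57, and the lymphoid chemokine Ccl21a by 0.55 and 0.53. Other members, taken from the list after its values were seen, stood further apart at day 89. Ccl4, a chemokine of activated macrophages, differed by 0.29 and 1.29, and Cxcl13, which draws B cells, by 0.11 and 0.95. Cxcl12 differed by 0.12 and -1.42, in opposite directions. Neutrophil genes had their larger differences at day 7. S100a9, a subunit of calprotectin, differed by 3.5 at day 7 and 0.03 at day 89, and S100a8 by 3.03 and -0.09. S100a8 stood at 41.4 FPKM in DSS replicate 75 and at 4.24 to 6.91 in the other day 7 DSS libraries, and below 0.5 in every control and every day 89 library, so it was tested only because of the day 7 DSS group. The same holds for Retnlg, which was 0 in every control. S100a9 and Il1r2 reached 0.5 FPKM in fewer than 3 controls, so they passed the filter only with DSS libraries. The neutrophil medians below rest in part on these genes. Csf3r, the receptor for granulocyte colony-stimulating factor, differed by 0.66 and 0.70, with DSS replicate R29 at 6.78 FPKM. Of the 7 neutrophil genes tested of 14 listed, the median was 0.66 at day 7 and 0.09 at day 89, and that of the treatment term, 0.68, was -0.01 when a gene had to reach an FPKM of 1 in 6 libraries. T and NK cell genes had a median of 0.12 over 14 genes. At both days 8 stood higher (57.1%, against 27.6% of all genes) and 2 lower (14.3%, against 25.8%). Cd4, Cd3g, Cd3d and Gzmb of this list reached 0.5 FPKM in fewer than 3 controls, so they passed the filter only with DSS libraries.

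**Figure D2:**
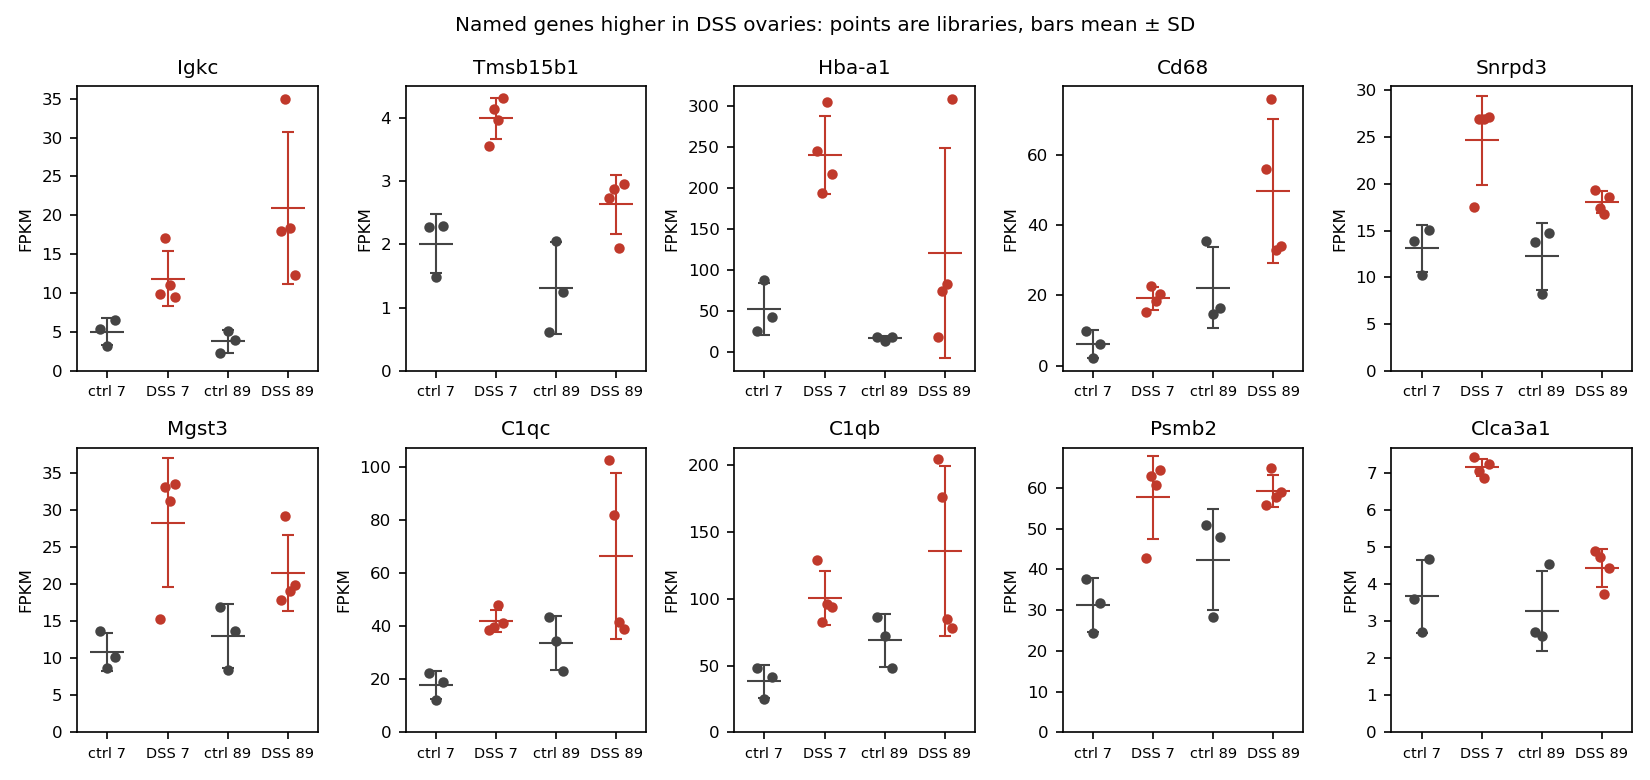
FPKM of the 10 named genes that stood higher in DSS, 1 panel per gene, for control and DSS at day 7 and day 89. Points are libraries and bars are mean and SD (n = 3 control, n = 4 DSS per day). Igkc, Snrpd3, Mgst3 and Psmb2 are without overlap at both days, and the day 89 spread of Hba-a1, Cd68, C1qc and C1qb comes from 1 or 2 high libraries.

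The largest treatment term among the named genes belonged to the alpha globin Hba-a1, the oxygen carrier of red blood cells, on GRCm38 at chr11:32283511-32284465. Hba-a1 stood at 25.7, 87.8 and 42.9 FPKM in day 7 controls and at 245, 194, 304 and 217 in DSS. At day 89 it was 18.6, 13.5 and 17.8 in controls and 18.3, 73.9, 82.1 and 308 in DSS. DSS replicate R29 lay within the control range and the other 3 DSS libraries of that day above it. The treatment term was 2.25 (SE 0.45, adjusted p = 0.254), and without R29 it was 2.57 with a limma adjusted p of 0.0396, past the threshold. Hba-a1 and Hba-a2 are near-identical copies, so the split of reads between them is uncertain. Hbb-bs, a beta globin, differed by 1.93 (SE 0.52), and Alas2, the red cell enzyme that starts heme synthesis, by 1.11 (SE 0.27). Of 12 listed erythrocyte genes 7 were tested, 6 of them higher at both days, with a median of 1.53. Their summed level was 73.1 to 328 FPKM in day 7 controls and 432 to 760 in DSS, and 54.5 to 55.5 and 52.9 to 672 at day 89.

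At day 7 the globin sum was higher in every DSS library (406 to 720 FPKM) than in every control (49.3 to 309). Igkc, Cd68 and C1qb separated the day 7 groups in the same way. Among the DSS libraries of day 89, the globin level did not order the libraries as these immune genes did. DSS replicate R29 had the lowest globin sum of its group (43.5 FPKM, with controls at 42.4 to 44.2) and yet 18 FPKM of Igkc, 56.0 of Cd68 and 204 of C1qb. DSS replicate R89 had the highest globin sum of its group (650 FPKM), and there Igkc, Cd68 and C1qb were at or near the lowest of the DSS day 89 values. With a term for globin level in the model, the difference was 2.10 for Igkc, 2.12 for Cd68, 1.81 for C1qb and 1.69 for C1qc, and 0.48 for Hba-a1. None of these passed the adjusted threshold (adjusted p 0.105, 0.0756, 0.0756, 0.0756 and 0.366). Hba-a1 is among the globin genes that define the term, so the fall of its own value was fixed in advance. Because globin level and treatment went together at day 7, this fit cannot tell their contributions apart there. Whether blood content plays a part was not tested.

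The other 5 named genes that stood higher were Snrpd3, Mgst3, Psmb2, Tmsb15b1 and Clca3a1. Snrpd3, a Sm core protein of the spliceosome, stood at 13.9, 10.3 and 15.1 FPKM in day 7 controls and 17.5, 27.0, 26.9 and 27.2 in DSS. At day 89 it was 13.8, 8.19 and 14.8 in controls and 19.4, 17.4, 16.8 and 18.6 in DSS, so the groups were separate at both days (treatment term 0.71, SE 0.15). Mgst3, a microsomal glutathione transferase, stood at 13.7, 8.73 and 10.1 FPKM in day 7 controls against 15.3, 33.1, 31.2 and 33.4 in DSS. Its day 89 values were 16.9, 8.38 and 13.7 against 17.9, 29.1, 19.0 and 19.9, again without overlap (0.98, SE 0.21). Psmb2, a beta subunit of the proteasome core, differed by 0.69 (SE 0.15) and was also separate at both days. Tmsb15b1, a thymosin that binds actin monomers, differed by 0.74 at day 7 and 0.69 at day 89. Clca3a1, of the family of chloride channel regulators, differed by 0.83 and 0.37.

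In Snrpd3, Mgst3 and Psmb2 control replicates 51 and R124 were the lowest of their groups, and without both the treatment terms were 0.51, 0.79 and 0.48. Further examples from the 46 genes that stood higher without overlap at both days were chosen after their values were seen. Mif, an abundant cytokine with tautomerase activity, was 337, 168 and 258 FPKM in day 7 controls and 393, 499, 388 and 394 in DSS. At day 89 Mif was 214, 135 and 206 against 243, 343, 222 and 274 (treatment term 0.66, SE 0.17). Polr2j, a subunit of RNA polymerase II, differed by 0.85 (SE 0.22), and Cks2, a partner of cyclin-dependent kinases, by 0.72 (SE 0.18). In these genes too control replicates 51 and R124 were the lowest of their groups, at 168 and 135 FPKM for Mif, 8.02 and 9.95 for Polr2j, and 18.7 and 11.9 for Cks2. Without both, the treatment terms were 0.42 for Mif, 0.51 for Polr2j and 0.39 for Cks2. Fabp5, a fatty acid carrier, differed by 0.59 (SE 0.14) and did not share that order, with control replicate 10 and control replicate R123 the lowest at 10.8 and 12.5 FPKM. Lrrc32, which holds latent transforming growth factor beta on the surface of regulatory T cells and endothelium, differed by 0.53 (SE 0.12). In Lrrc32 control replicates 51 and R124 were again the lowest of their groups, at 2.91 and 4.21 FPKM, and without both the treatment term was 0.43. Fcgr4, an Fc receptor of macrophages and neutrophils, reached 202 FPKM in DSS replicate R29 and 6.22 to 21.1 in the other DSS libraries of day 89, against 1.75 to 5.83 in controls. Its day 7 difference was 1.08 and its day 89 difference 2.55.

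The genes that stood lower in DSS had smaller differences. Adamts1, a secreted metalloprotease that cleaves versican in the expanding cumulus and is needed for normal ovulation, had the largest difference among the 10 named. It lies on GRCm38 at chr16:85793827-85803113. Adamts1 stood at 12.5, 7.66 and 4.53 FPKM in day 7 controls and at 2.77, 4.29, 3.81 and 2.85 in DSS. At day 89 the gene was 37.1, 20.1 and 14.6 in controls and 10.2, 11.2, 12.3 and 11.4 in DSS. The DSS libraries were close together and the controls wide apart, with no overlap at either day but a narrow gap between 4.29 and 4.53 FPKM at day 7. The treatment term was -0.95 (SE 0.20, adjusted p = 0.261), with -0.98 at day 7 and -0.92 at day 89.

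Edn2, the vasoconstrictor peptide endothelin that granulosa cells release at ovulation, lies on GRCm38 at chr4:120161206-120167360. Edn2 was 1.09, 1.29 and 1.18 FPKM in day 7 controls and 0.559, 0.905, 0.361 and 0.395 in DSS. The day 89 values were 1.38, 5.44 and 2.55 against 1.08, 0.236, 0.461 and 0.851, without overlap at either day (treatment term -0.86, SE 0.21). Adamts1 and Edn2 belong to a list of 19 genes of the periovulatory follicle, of which 11 were tested. In this list 7 genes stood lower at both days (63.6%, against 25.8% of all genes) and none higher, with a median of -0.29 (-0.19 at day 7 and -0.34 at day 89). Cebpb, a transcription factor that ovulation requires, differed by -0.42 (SE 0.17), and the EGF-like ligand Ereg by -0.24 (SE 0.12). Without control replicates 51 and R124 these were -0.18 and -0.12. The list median was -0.54 with the voom fit, -0.51 without the 3 mitochondria-rich libraries, -0.19 without control replicate 51 and -0.18 without control replicates 51 and R124.

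Of the remaining 9 named genes with lower levels, 7 were also without overlap at both days. Pex6, an ATPase that recycles the peroxisomal import receptor, stood at 46.5, 53.3 and 50.7 FPKM in day 7 controls and 35.5, 33.1, 34.4 and 30.1 in DSS. At day 89 Pex6 was 34.8, 43.8 and 33.6 against 26.7, 30.1, 26.9 and 32.1, without overlap (-0.47, SE 0.09, adjusted p = 0.254). Slc37a4, the glucose-6-phosphate carrier of the endoplasmic reticulum, was 10, 11.8 and 9.79 FPKM against 6.08, 5.27, 7.19 and 5.97 at day 7. Its day 89 values were 8.26, 10.8 and 8.25 against 7.37, 6.92, 7.35 and 6.02, also without overlap (-0.52, SE 0.10). Cgnl1, the junction protein paracingulin, had nearly the same difference at both days, -0.41 and -0.44, and Lman2l, a lectin of the early secretory pathway, had -0.70 and -0.33. Blmh, a cysteine peptidase, differed by -0.54 (SE 0.12), and Pgbd1, derived from a piggyBac transposase, by -0.47 (SE 0.10). Olfr558, an olfactory receptor gene at 0.471 to 2.42 FPKM over all libraries, differed by -0.65 (SE 0.13). Cgnl1, Lman2l, Blmh, Pgbd1 and Olfr558 were each without overlap at both days. The mitochondrial acetyl-CoA synthetase Acss1 (-1.03 and -0.60) and Cmc2, which serves cytochrome c oxidase assembly (-1.02 and -0.40), were separate only at day 7. Without control replicates 51 and R124 the treatment terms of Slc37a4 and Cmc2 were -0.42 and -0.57, against -0.52 and -0.71 with them.

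**Figure D3:**
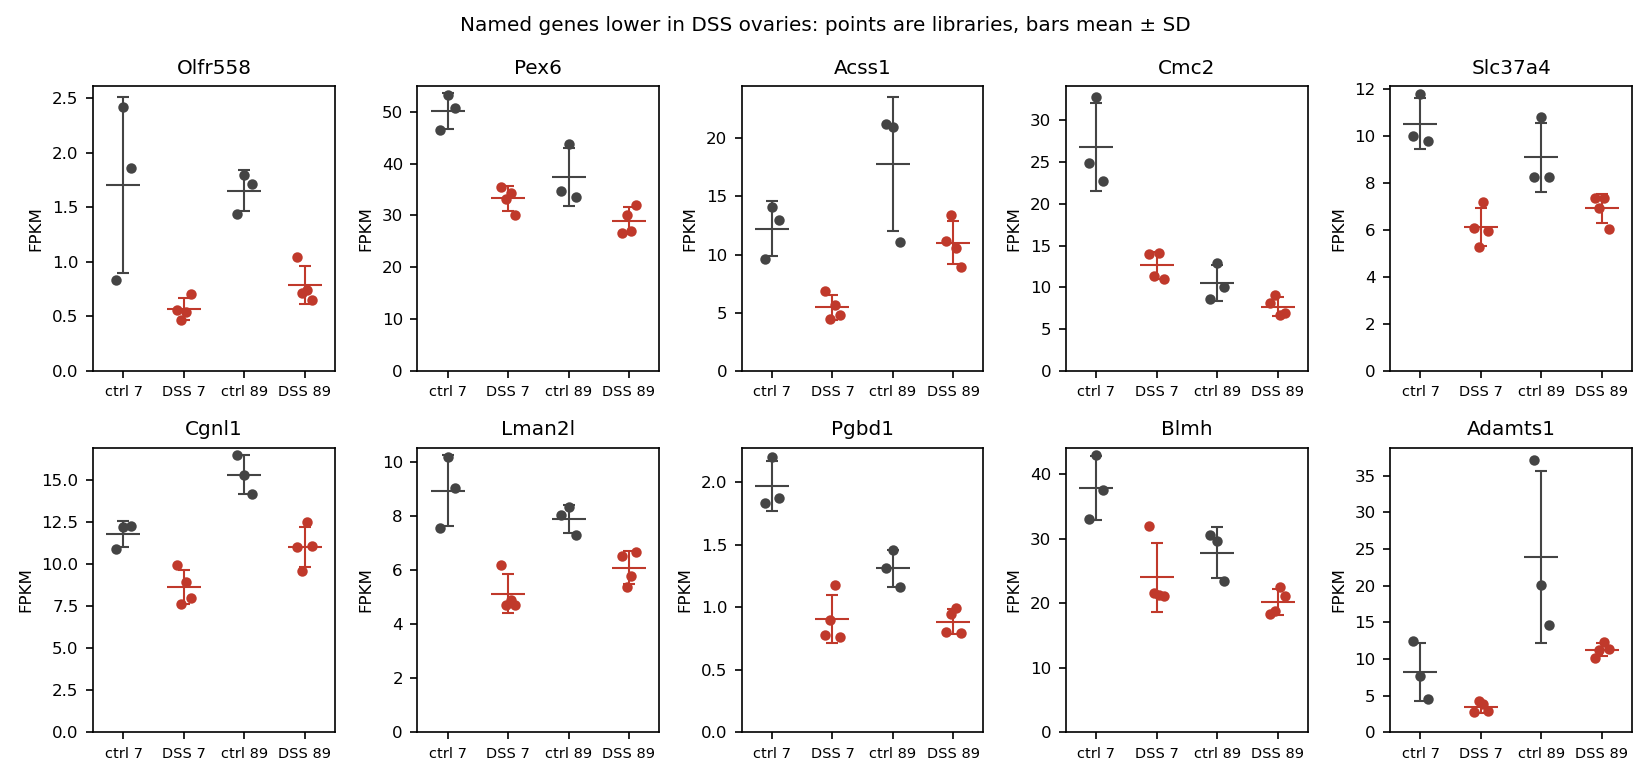
FPKM of the 10 named genes that stood lower in DSS, 1 panel per gene, for control and DSS at day 7 and day 89. Points are libraries and bars are mean and SD (n = 3 control, n = 4 DSS per day). All panels except Acss1 and Cmc2 show every DSS library below every control of its day, and Adamts1 shows controls that spread from 14.6 to 37.1 FPKM at day 89.

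Among the 40 genes that stood lower without overlap at both days, further members were named after their values were seen. Sptlc1, a subunit of the enzyme that begins sphingolipid synthesis, differed by -0.39 (SE 0.09), and Gpat4, which begins glycerolipid synthesis, by -0.56 (SE 0.15). Spop, a substrate adaptor of a ubiquitin ligase, was 54.1, 89.1 and 59.7 FPKM against 46.7, 41.0, 48.8 and 43.8 at day 7, and 60.7, 76.3 and 55.4 against 48.8, 39.1, 52.5 and 44.1 at day 89 (-0.50, SE 0.12). Here control replicates 51 and R124 were the highest of their groups, and without them the treatment term was -0.33. Mfn2, which fuses mitochondrial outer membranes, differed by -0.36 (SE 0.10), with controls of day 7 within 18.1 to 18.8 FPKM. Vascular genes were also present, the endothelial repressor Bcl6b (-0.61, SE 0.16) and the adhesion molecule Mcam of vessel walls (-0.34, SE 0.11). Control replicates 51 and R124 were the highest of their groups in Sptlc1, Gpat4, Mfn2, Bcl6b and Mcam too. Without both, the treatment terms of these genes were -0.30, -0.39, -0.33, -0.49 and -0.26.

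Endothelial markers as listed were lower at both days in 10 of 16 genes (62.5%) and higher in 2, with a median of -0.21 (-0.28 at day 7 and -0.16 at day 89). Tek, the angiopoietin receptor, was 4.22, 8.61 and 6.33 FPKM in day 7 controls and 5.78, 4.35, 3.70 and 4.26 in DSS. At day 89 Tek was 8.30, 9.73 and 8.56 against 6.23, 5.66, 7.83 and 6.42. The groups overlapped at day 7, where control replicate 10 was low, and were separate at day 89, with a difference of -0.39 at each day (SE of the treatment term 0.13). Kdr and Flt1, receptors for vascular endothelial growth factor, differed by -0.41 (SE 0.16) and -0.41 (SE 0.15), and Esam, a junction molecule, by -0.38 (SE 0.12). Without control replicates 51 and R124, Tek was -0.25, Kdr -0.21 and Flt1 -0.27. Within the 3 mitochondria-rich libraries the list median was 0.03, and within the other 11 it was -0.25.

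Heat shock chaperones, which fold other proteins and are induced together by heat shock factor, were lower at both days in 10 of 12 genes (83.3%) and higher in 1, Dnajb1 (0.33 and 0.10). The median was -0.19, with -0.15 at day 7 and -0.21 at day 89, so that the list was even in direction and small in size. Hsph1, of the HSP110 family, differed by -0.77 at both days (SE of the treatment term 0.21). Its values were 10.8, 24.4 and 21.7 FPKM against 7.91, 11.8, 10.7 and 10.5 at day 7, and 13.5, 30.4 and 21.7 against 13.4, 7.47, 13.1 and 14.4 at day 89. The groups overlapped at both days, because control replicates 10 and R123 were low, and control replicates 51 and R124 were the highest of all. Without these the treatment term of Hsph1 was -0.53. The mitochondrial chaperonin subunits Hspd1 and Hspe1, encoded head to head on chromosome 1, differed by -0.79 and -0.88 at day 7 and by -0.29 and 0.12 at day 89. The treatment term of Hspe1, -0.38, was -0.25 without control replicates 51 and R124. Hsp90aa1, the inducible HSP90, differed by -0.11 and -0.52.

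A shared promoter element was looked for in the chaperone genes. Promoters of 300 bases (250 before to 50 after the start site) came from RefSeq on GRCm38.p6, and 9 of the 12 genes had one. The heat shock element core GAANNTTC, which reads the same on both strands, was found in 7 of the 9 (77.8%), against 2442 of 27025 promoters in the whole table (9.04%). This motif was chosen after the list's values were seen, and a match describes letters and not binding. The windows below show the element in capitals with 25 bases on either side, or up to the end of the 300 bases, 5′ to 3′ on the strand of the gene. They come from the gene with the smallest p of the list, from the chaperonin pair that shares 1 element between divergent start sites, and from a gene with a pair of elements.
Hsph1, chr5:149636266-149636320, minus strand: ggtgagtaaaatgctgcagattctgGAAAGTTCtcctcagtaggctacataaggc
Hspe1, chr1:55088039-55088096, plus strand: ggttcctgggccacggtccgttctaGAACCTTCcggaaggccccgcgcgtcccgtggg
Hspd1, chr1:55088039-55088096, minus strand: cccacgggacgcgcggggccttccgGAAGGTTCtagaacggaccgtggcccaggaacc
Hspb1, chr5:135887777-135887854, plus strand: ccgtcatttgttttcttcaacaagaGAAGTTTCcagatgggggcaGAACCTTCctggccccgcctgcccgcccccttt
The elements did not mark a common size of difference. Hsph1 and Hspd1 were among the lowest of the list, whereas Hspb1, a small heat shock protein, was 28.2, 39.7 and 29.2 FPKM against 22.5, 32.5, 37.0 and 24.8 at day 7 and overlapped at day 89 too (35.1, 38.9 and 34.8 against 26.4, 45.2, 25.5 and 33.0). Of the chaperones of the endoplasmic reticulum, Hsp90b1 differed by -0.54 (SE 0.18) and the folding factor Creld2 by -0.54 (SE 0.16), or by -0.30 and -0.33 without control replicates 51 and R124, while the list of 16 unfolded protein response genes had a median of -0.02, with 4 higher and 2 lower at both days.

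Targets of p53 and inhibitors of the cell cycle stood lower at both days in 13 of 18 genes (72.2%) and higher in none. The median was -0.18, with -0.22 at day 7 and -0.13 at day 89. Ccng1, a cyclin induced by p53, was 24.4, 21.2 and 20.9 FPKM against 17.4, 17.0, 16.3 and 17.4 at day 7, and 29.4, 27.5 and 24.5 against 26.8, 19.7, 23.7 and 20.1 at day 89 (-0.31, SE 0.09). It was separate at day 7 and overlapped at day 89. Cdkn2b, an inhibitor of CDK4 and CDK6, differed by -0.96 (SE 0.37; -0.57 without control replicates 51 and R124), and Mdm2, which degrades p53, by -0.27 (SE 0.12). Cdkn1a, the p21 inhibitor, differed by -0.31 at day 7 and -1.52 at day 89. Without control replicate 51 the list median was -0.11, and without control replicates 51 and R124 it was -0.06. It was 0 within the 3 mitochondria-rich libraries and -0.27 within the other 11.

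**Figure D4:**
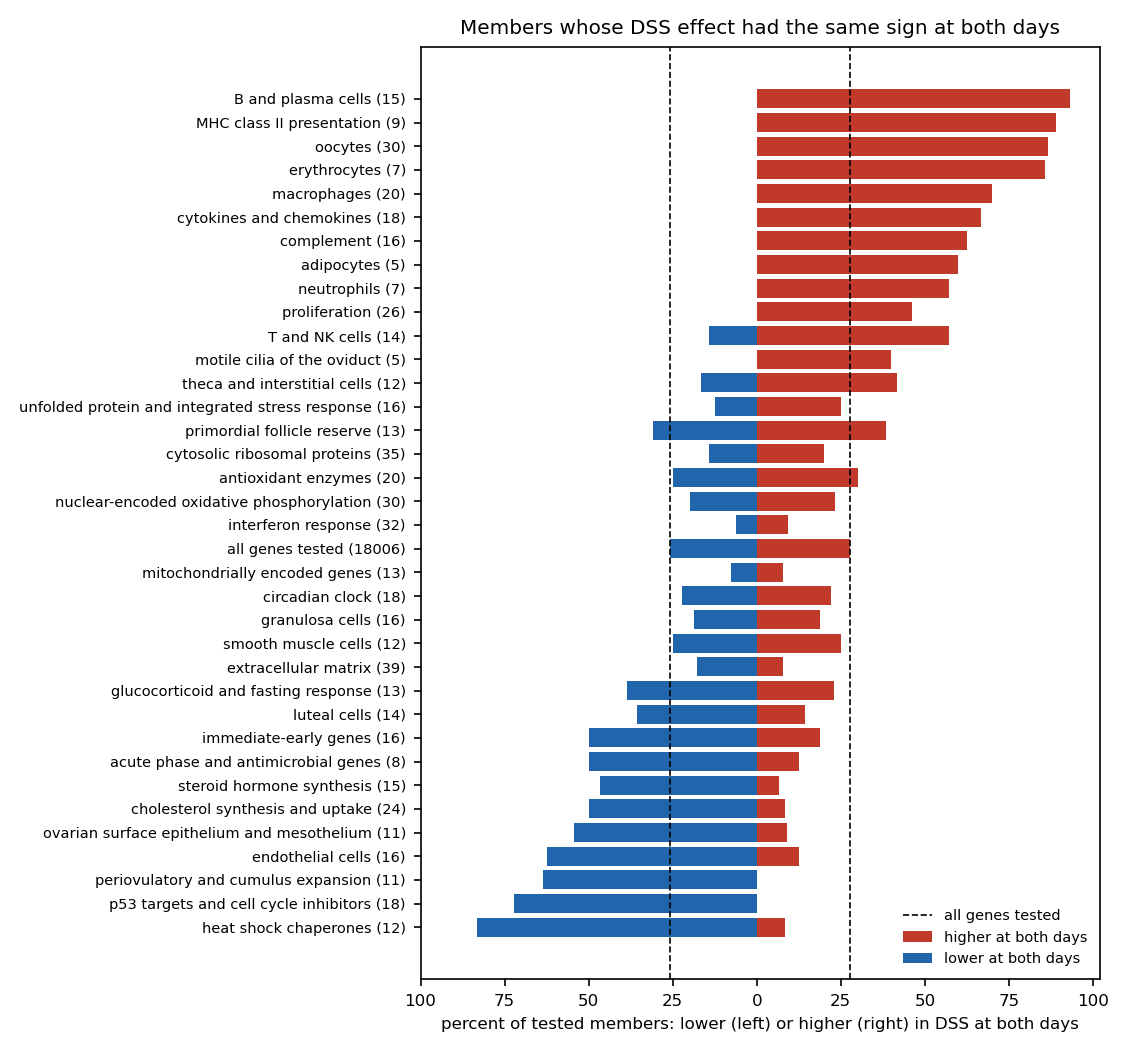
Share of the tested members of each gene list (number in parentheses) whose DSS difference was lower at both days (blue, left) or higher at both days (red, right), in percent. Dashed lines mark all 18006 genes, 25.8% lower and 27.6% higher, and lists run from B and plasma cells (93.3% higher) to heat shock chaperones (83.3% lower).

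Other groups had medians well away from 0 at day 7 and near 0 at day 89. Genes of cholesterol synthesis and uptake had a median of -0.66 at day 7 and -0.01 at day 89, and those of steroid hormone synthesis -0.92 and -0.08. In the cholesterol list 12 of 24 genes stood lower at both days (50%, against 25.8% of all genes) and 2 higher. In the steroid list 7 of 15 tested stood lower at both days (46.7%) and 1 higher. Star, which moves cholesterol into mitochondria for steroid synthesis, was 234, 131 and 110 FPKM against 41.2, 42.5, 39.7 and 33.5 at day 7. At day 89 Star was 294, 229 and 195 in controls and 269, 316, 244 and 64.8 in DSS, where only replicate R89 lay below the controls. Pmvk, a kinase of the mevalonate pathway, differed by -1.09 and -0.43 (treatment term -0.76, and -0.49 without control replicates 51 and R124), and Hmgcs1, an early enzyme of that pathway, by -1.45 and -0.47. The sterol response element TCACNCCAC was present in the promoter of 1 of 16 cholesterol genes with a promoter, Hmgcs1 (6.25%, against 1.44% of all promoters). The median of the treatment term was -0.28 for the cholesterol list and -0.43 for the steroid list. Without control replicates 51 and R124 these were -0.18 and -0.11, without replicate 51 alone the steroid median was -0.26, and without control R123 or DSS R29 the cholesterol median was -0.47 or -0.43.

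Oocyte genes stood higher at both days in 26 of 30 (86.7%) and lower in none, with a median of 0.38 (0.60 at day 7 and 0.17 at day 89). Zp3, a protein of the egg coat, was 40.0, 24.8 and 42.8 FPKM in day 7 controls and 61.2, 106, 114 and 74.7 in DSS. At day 89 Zp3 was 35.3, 9.55 and 34.3 in controls and 24.3, 14.2, 36.1 and 44.6 in DSS, so that the groups were separate at day 7 and overlapped at day 89. The transcription factor Nobox differed by 0.96 and 0.34, and Zp1 by 1.48 and 0.35. Without control replicates 51 and R124 the treatment terms were 0.35 for Zp3, 0.28 for Nobox and 0.51 for Zp1, against 0.77, 0.65 and 0.91 with them. The list median depended on the low controls of both days. It was 0.24 without control replicate 51, 0.20 without R124 and 0.03 without both. Proliferation genes had a median of 0.38 at day 7 and 0.00 at day 89, with 12 of 26 higher at both days, and Plk1, a mitotic kinase, differed by 0.66 and 0.53.

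Extracellular matrix and interferon genes pointed in different directions at the 2 days. The matrix median was 0.24 at day 7 and -0.43 at day 89 over 39 genes, of which 3 stood higher and 7 lower at both days. Sparc, a collagen-binding glycoprotein, was an exception, with -0.49 and -0.52, and Fbln2, a fibulin, differed by -0.17 and -1.23. The interferon response median was -0.32 at day 7 and 0.24 at day 89 over 32 genes, 3 higher and 2 lower at both days. Gbp3, a guanylate-binding protein, differed by -1.04 and 0.09, and Ifi27 by -0.91 and 0.10. Of 21 interferon genes with a promoter, 15 (71.4%) held the interferon-stimulated response element (GAAA, any pair of bases, GAAA, either strand), against 3.99% of all promoters. Among genes induced by glucocorticoids, Fkbp5 differed evenly, by -0.67 and -0.66 (SE of the treatment term 0.26), while the list of 13 had a median of -0.05. Whether the median differed between days was not tested for any list.

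**Figure D5:**
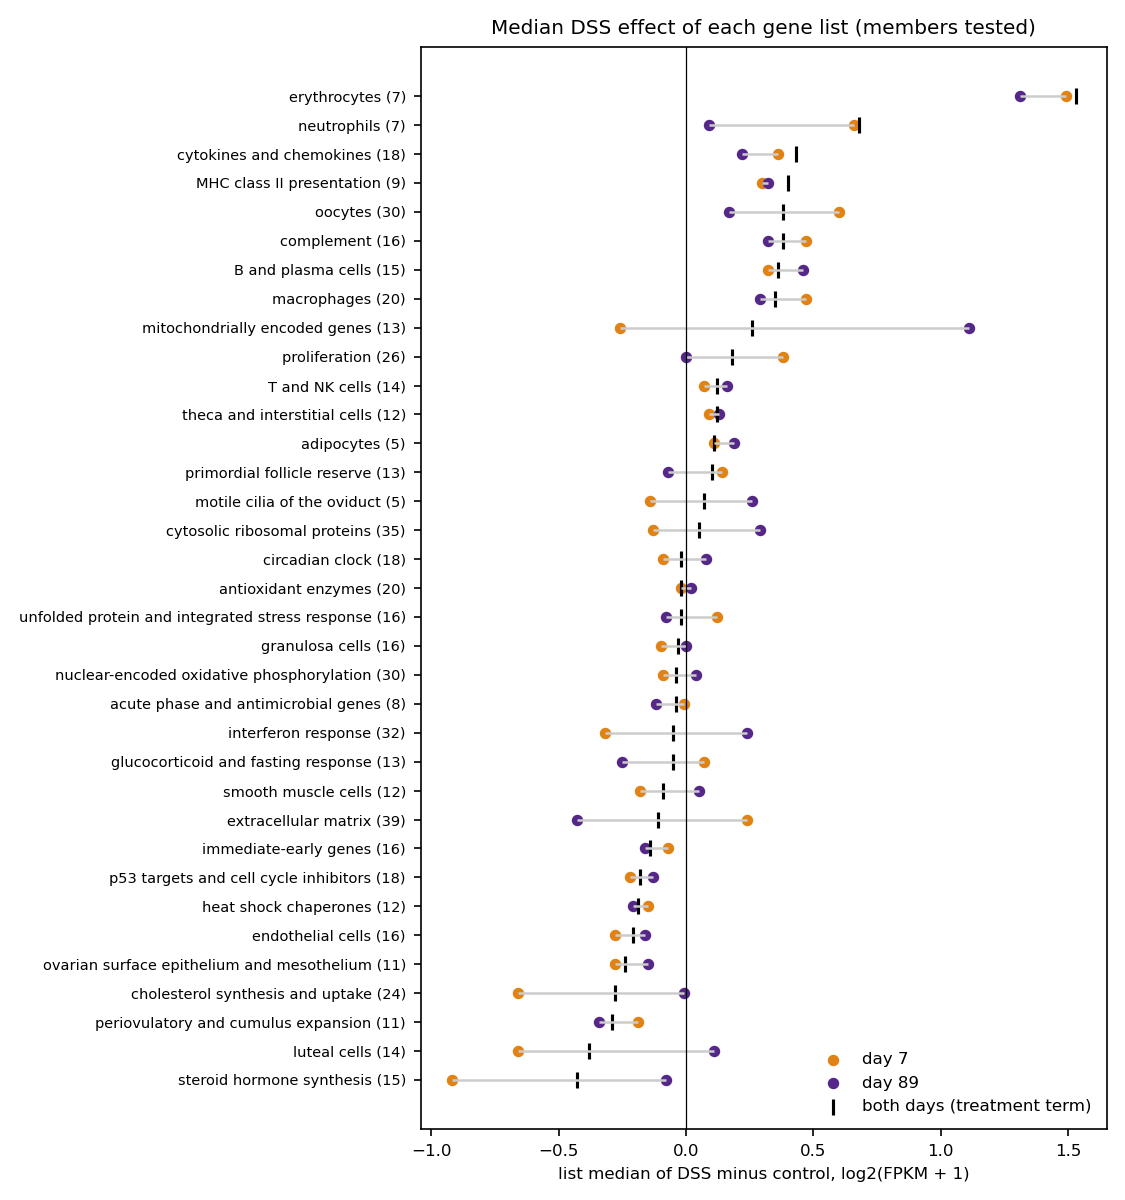
Median DSS minus control difference of each gene list in log2(FPKM + 1), with the number of tested members in parentheses, at day 7 (orange), at day 89 (purple) and for the treatment term (black bar). Erythrocyte, complement, macrophage, MHC class II and B cell lists lie above 0 at both days, while the extracellular matrix list lies at 0.24 at day 7 and -0.43 at day 89.

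The difference between the DSS effects of both days was tested per gene as well, since an additive term hides effects that cancel. No gene passed (0% at an adjusted p under 0.05 in limma, smallest adjusted p 0.254), and 1521 genes (8.45%) had an unadjusted p under 0.05. Without DSS replicate 75 there were 41 genes past the threshold, and without the 3 mitochondria-rich libraries there were 3. Angptl4, an inhibitor of lipoprotein lipase, had the smallest p. It was 22.5, 23.2 and 18.4 FPKM in day 7 controls and 34.4, 28.3, 31.0 and 35.6 in DSS. At day 89 Angptl4 was 55.5, 48.2 and 50.7 in controls and 26.1, 34.6, 25.2 and 34.9 in DSS. The groups were without overlap at both days and in opposite directions, 0.58 and -0.76, and the difference was -1.34 (SE 0.21, adjusted p = 0.254; 0.0377 without DSS replicate 75). Srcin1, a regulator of Src kinase, went the other way, with -1.01 and 0.30, a difference of 1.31 (SE 0.22). Cd276, Gpr153 and Bckdhb were likewise without overlap and opposite, with differences of -0.98, -1.16 and 0.89.

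Against gene length, the treatment term had a Spearman correlation of -0.09 across genes, with 0.05 for the day 7 difference and -0.26 for the day 89 difference. All 20 named genes of the treatment term had the same sign within the 3 mitochondria-rich libraries and within the other 11. The genes were chosen from these same 14 libraries, so a kept sign follows in part from that choice. Within the 3, DSS replicate 75 alone was set against control replicates 10 and 53. The size differed for some. Igkc was 0.65 within the 3 and 2 within the 11, and Mgst3 0.35 and 1.03, whereas Adamts1 was -1.2 and -0.92.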

How the data were processed

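RNA of 14 mouse ovary libraries was measured. The authors deposited FPKM per gene and library for 56748 genes, with gene lengths. A TruSeq kit turned total RNA into libraries, per the labels' protocols. HISAT2 2.0.5 is the tool and GRCm38 the build named, per the submitters' processing notes. The counter, annotation release, strand setting and handling of multiply mapped reads remain not given in the sources used here, so near-identical, overlapping and antisense genes (Hba-a1 and Hba-a2, Hspa1a and Hspa1b, immunoglobulin genes) are uncertain. Deposited FPKM times length fell on whole read steps (within 0.01 of a step, 100% of values below 300 steps), which gave the depth. FPKM divides out depth and length but not composition, so a rise in abundant transcripts lowers the rest.

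The design allowed for a count test had the table held counts. It held FPKM, so log2(FPKM + 1) was tested with limma 3.58.1 (limma-trend) in R 4.3.3 with treatment and day as additive terms, for 18006 genes with an FPKM of 0.5 in at least 3 libraries, with Benjamini-Hochberg adjustment and a threshold of 0.05. All differences are DSS minus control on that scale, which understates low genes. Effects per day and their difference came from 1 mean per group over all 14 libraries. A gene can pass the filter through 1 group alone. Named were, per direction, the 10 smallest p with the same sign at both days and at least 1 group mean of 1 FPKM or more, without unnamed genes, pseudogenes and small RNA genes, then up to 4 genes per list and 5 for the difference between days. The members and gene lists were chosen with earlier results of these data known, so lists are described by counts and medians without a test. The script was tested on simulated data. Positions came from GENCODE M21 by gene ID, since deposited positions differed from it, and promoters from RefSeq. Alternatives covered pseudocount, filters, scaling, a voom fit on recovered reads, library weights, terms for mitochondrial share, length trend and globin level, and leaving out libraries.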

Additional observations from a re-analysis of the deposited data

Results flagged for a closer look

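In 202 checks of a group of 4 DSS libraries, 23 had a library far from the others. The cut-off would flag about 1 in 20 groups of independent, normally distributed values. The FPKM checked came from the same libraries and largely from genes chosen by p, so that rate need not hold and the 23 are a description. Control groups, with 3 libraries each, were not checked. DSS replicate 75, 1 of the 3 mitochondria-rich libraries, recurred among the 23. It stood apart from the other day 7 DSS libraries in mitochondrial share (14.2% of reads, next 4.04%), on the low side in Snrpd3 (17.5 FPKM, next 26.9), Mgst3 (15.3, next 31.2) and Aurkb (5.24, next 11.4), and on the high side in Lman2l (6.2, next 4.91), Blmh (32.0, next 21.6), Esam (26.0, next 19.1) and Trac (2.54, next 1.18). It was also high in the neutrophil genes S100a9 (63.9, next 8.4), S100a8 (41.4, next 6.91) and Retnlg (22.4, next 3.16). In Snrpd3, Mgst3, Lman2l and Blmh it was the DSS library nearest to the controls.

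DSS replicate 82 stood low in Csf1r (6.92 FPKM, next 9.26) and high in Gbp3 (8.41, next 5.46), and replicate 80 low in Pmvk (3.86, next 6.35) and Cdkn2b (5.63, next 6.39). At day 89, R38 stood high in mitochondrial share (3.66%, next 2.57%), Ifi27 (125 FPKM, next 93.6), Cebpb (85.7, next 57.8) and Retnlg (0.291, the other 3 listed at 0). R89 stood high in Derl3 (31.5, next 16.8) and Hba-a2 (20.4, next 5.51), R29 in Ighg2b (6.35, next 1.37) and R78 in S100a9 (1.99, next 0.121).

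Angptl4, Srcin1, Cd276, Gpr153 and Bckdhb were separate at each day in opposite directions. The day 89 effect minus the day 7 effect was -1.34, 1.31, -0.98, -1.16 and 0.89, and none passed the adjusted threshold of limma (adjusted p 0.254, 0.254, 0.281, 0.281 and 0.316).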

How the results depend on the processing

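No gene stood lower past the threshold under any of the 27 alternatives. For genes higher, 24 alternatives gave 0, while a term for mitochondrial share gave 1 (Gm11518, 0.76, adjusted p 0.0458), the average of both day effects gave 1 (Gm10131, 0.67, adjusted p 0.0395), and leaving out single libraries gave 0 to 1 (Hba-a1 without DSS replicate R29). For the difference between days, no filter on low values gave 2 genes, leaving out the 3 mitochondria-rich libraries gave 3, and leaving out single libraries gave 0 to 41; the remaining alternatives gave 0. The causes were not tested. The 20 genes named from the treatment term kept their sign in all 27 alternatives, with adjusted p from 0.0396 to 0.95, the latter without control replicates 51 and R124, an alternative added after the data were seen. Since these genes were chosen from the same libraries, a kept sign follows in part from that choice. Counts at an unadjusted p under 0.05 ranged from 459 to 1622 for higher and 373 to 1615 for lower genes, and lower genes numbered 1545 with a term for length trend. Counts of genes without overlap grow as libraries are left out, to 433 higher and 457 lower without the 3 mitochondria-rich libraries. The pseudocount moved Olfr558 to -1.16 and Pgbd1 to -0.79. A term for globin level gave medians of 0.09 for erythrocyte genes, which define it, -0.36 for chaperones and -0.10 for cholesterol genes, and library weights gave -0.08 for the last. No paired analysis was possible because no replicate number recurs between groups.

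With 3 and 4 libraries per group and a median SE of 0.143 log2 units over genes, small shared differences are not detectable, and genes near 0.5 FPKM rest on few reads.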

Other observations

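Surface epithelium and mesothelium genes had a median of -0.24, with -0.28 at day 7 and -0.15 at day 89, and 6 of 11 stood lower and 1 higher at both days. Granulosa cell genes had a median of -0.03, with 3 of 16 higher and 3 lower at both days, and smooth muscle genes -0.09, with 3 of 12 in each direction. Luteal genes had -0.66 at day 7 and 0.11 at day 89. Theca and interstitial genes had 0.12. Adipocyte and oviduct cilia genes, markers of tissue that can adhere to a dissected ovary, had 0.11 and 0.07 over 5 tested genes each.

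Of the general cell functions, antioxidant enzymes had a median of -0.02, clock genes -0.02, nuclear-encoded oxidative phosphorylation -0.04, ribosomal proteins 0.05, the primordial follicle reserve 0.10, acute phase genes -0.04 and immediate-early genes -0.14. The 13 mitochondrially encoded genes had -0.26 at day 7 and 1.11 at day 89, and the treatment term, 0.26, ranged from -0.43 to 1.33 over the alternatives.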
